A study of Mus musculus with 11 samples.

Results

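The strain difference of the cardiac injury effect was measured gene by gene in mouse hearts: the change from the uninjured to the injured region of C3H/HeJ (C3H) hearts minus the same change in C57BL/6J (B6) hearts. This difference, called the interaction below, was taken on log2(normalised read count + 1), so a positive value means a larger rise, or a smaller fall, in C3H. All genes with a normalised count of at least 10 in at least 2 of 11 libraries entered, 14751 of the 15274 genes in the table. The other 523 genes were too low to test, and no gene was chosen by its values beyond this filter. A gene can pass the filter through the 2 C3H injured libraries alone. The 4 groups were uninjured regions of B6 hearts (n = 3), injured regions of B6 hearts (n = 3), uninjured regions of C3H hearts (n = 3) and injured regions of C3H hearts (n = 2), from 6 animals aged 8 weeks whose libraries are titled D7. Both regions of a heart came from the same animal, so the uninjured regions are not from unoperated mice, and C3H mouse 3 gave an uninjured region only. Neither the kind of injury nor any other treatment is given in the sources used here.

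C3H/HeJ is an inbred strain known for dystrophic calcification, the deposition of calcium salts in dying or scarred tissue, including that of the heart, while C57BL/6J is regarded as resistant. After cardiac injury, macrophages take up dead cells and digest them in lysosomes, fibroblasts lay down collagen and other matrix, and the surviving muscle cells change their metabolic and contractile gene expression. Several proteins with which macrophages degrade what they have taken up, among them the vacuolar proton pump, cathepsin K and tartrate-resistant acid phosphatase, are also those with which the osteoclast, a cell of the same lineage, resorbs bone.

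Between 9699985 and 22138459 reads per library were assigned to genes. All 5 C3H libraries had the female-expressed Xist at 1840 or more and Ddx3y, a gene of the Y chromosome, at 3.46 or less, whereas the 6 B6 libraries had Xist at 12.2 or less and Ddx3y at 1429 or more. Strain and sex therefore cannot be told apart here. Defining heart muscle genes were abundant in every library: the summed normalised count of 12 cardiomyocyte markers was 1646100 to 2242640 in B6 uninjured, 1035110 to 1429760 in B6 injured, 1859910 to 2392500 in C3H uninjured and 572654 to 643461 in C3H injured regions. The reads were aligned to a genome build of B6 mice, so that C3H reads over sequence variants can be undercounted, which cancels in the interaction where it is equal in both regions of a heart.

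Injury changed 221 genes more strongly upward in C3H than in B6 hearts and 10 genes more strongly downward (limma, adjusted p below 0.05). These 231 genes were 1.57% of all tested, 1.5% with the higher and 0.0678% with the lower C3H effect, and 2082 genes had an unadjusted p below 0.05. The median interaction over all tested genes was -0.02. Genes with a higher C3H effect had interactions from 1.23 to 6.68 with a median of 2.54, and 71 of them exceeded 3. Their median injury effect was 0.62 in B6 and 3.21 in C3H. In C3H, 221 of these 221 genes rose with injury (15.3% of all tested rose and 15.4% fell in C3H). In B6, 202 of them had a positive and 18 a negative effect, and 0 of the 221 passed the test (0.0136% of all tested passed in B6). Both C3H injured libraries lay above all 9 other libraries for 216 of the 221 genes, against 15.9% of all tested. The genes were called on these same values, so this count describes them and is no further test. None of the 231 genes had a larger effect in B6 than in C3H, and 1, the clone gene 5730416F02Rik, named after its values were seen, had effects of at least 1 in opposite directions (-1.18 in B6 and 3.03 in C3H).

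**Figure D1:**
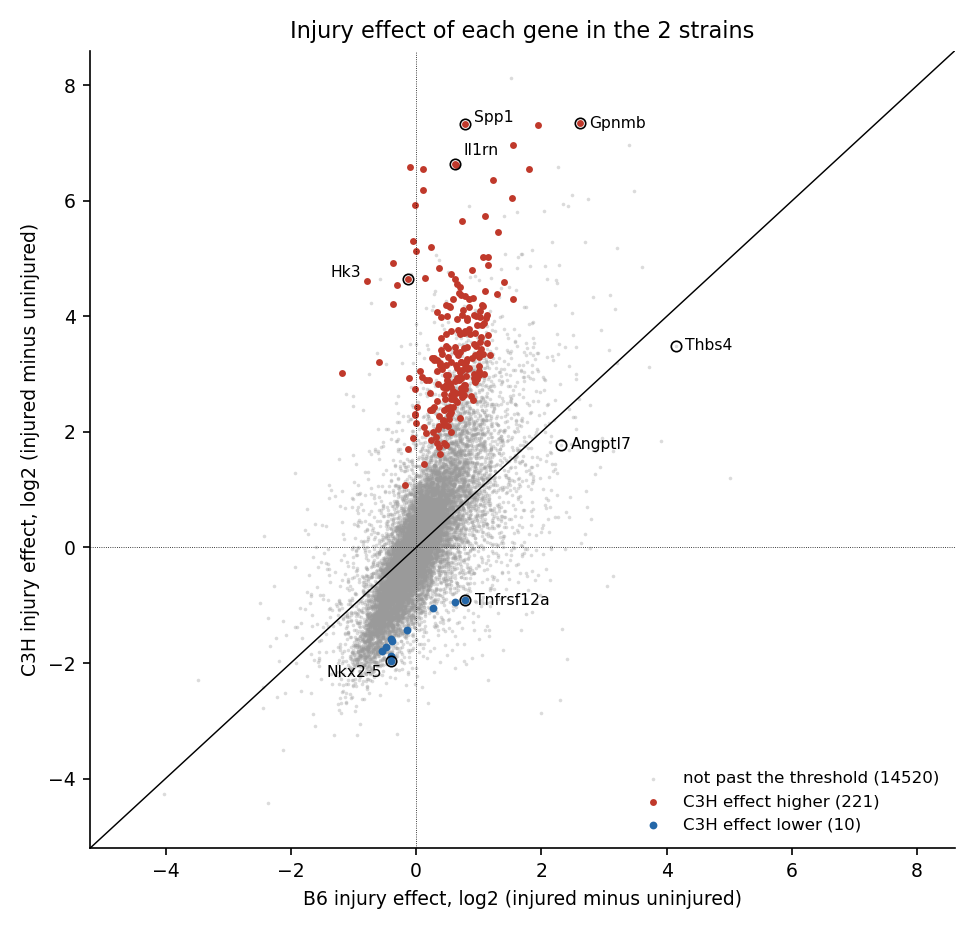
Injury effect in B6 (x axis) against that in C3H (y axis) for each of 14751 tested genes, both as log2 of injured minus uninjured. Genes whose interaction passed the test are coloured, and the line marks equal effects. The 221 genes with a higher C3H effect form a steep band between -1.18 and 2.61 on the B6 axis, while their C3H effects run from 1.08 to 7.35.

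The change within each animal was also compared. In 221 of the 221 genes the change in each of the 2 C3H animals with both regions exceeded that in each of the 3 B6 animals, which was so for 18.1% of all tested genes. In 10 of the 10 genes with a lower C3H effect both C3H changes lay below the 3 B6 changes, against 16.9% of all tested. These genes were called on the same values, so both counts follow largely from the call and are no separate support. With 3 against 2 animals an exact permutation test of a single gene cannot give a one-sided p below 0.1, so no such test is given. A fit in which each animal had its own level (a fixed block) called 491 genes, 437 of them (2.96% of all tested) with a higher and 54 (0.366%) with a lower C3H effect, and 226 of the 231 genes above were among them. In that fit C3H uninjured library 3 has no partner and carries no weight. The calls rest to a large part on C3H injured library 2: without it, 10 genes were called, namely Alcam, Cd68, Gpr137b, Gpr137b-ps, Hk3, Itgax, Lcp1, Slc37a2, Spp1 and Zranb3, and the remaining C3H injured library is then assumed to vary like the other groups. The median interaction of the 221 genes was 2.26 without library 2 and 2.89 without library 1. For 231 of the 231 genes the direction was the same under every alternative tried, as is likely for genes called on the same libraries.

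**Figure D2:**
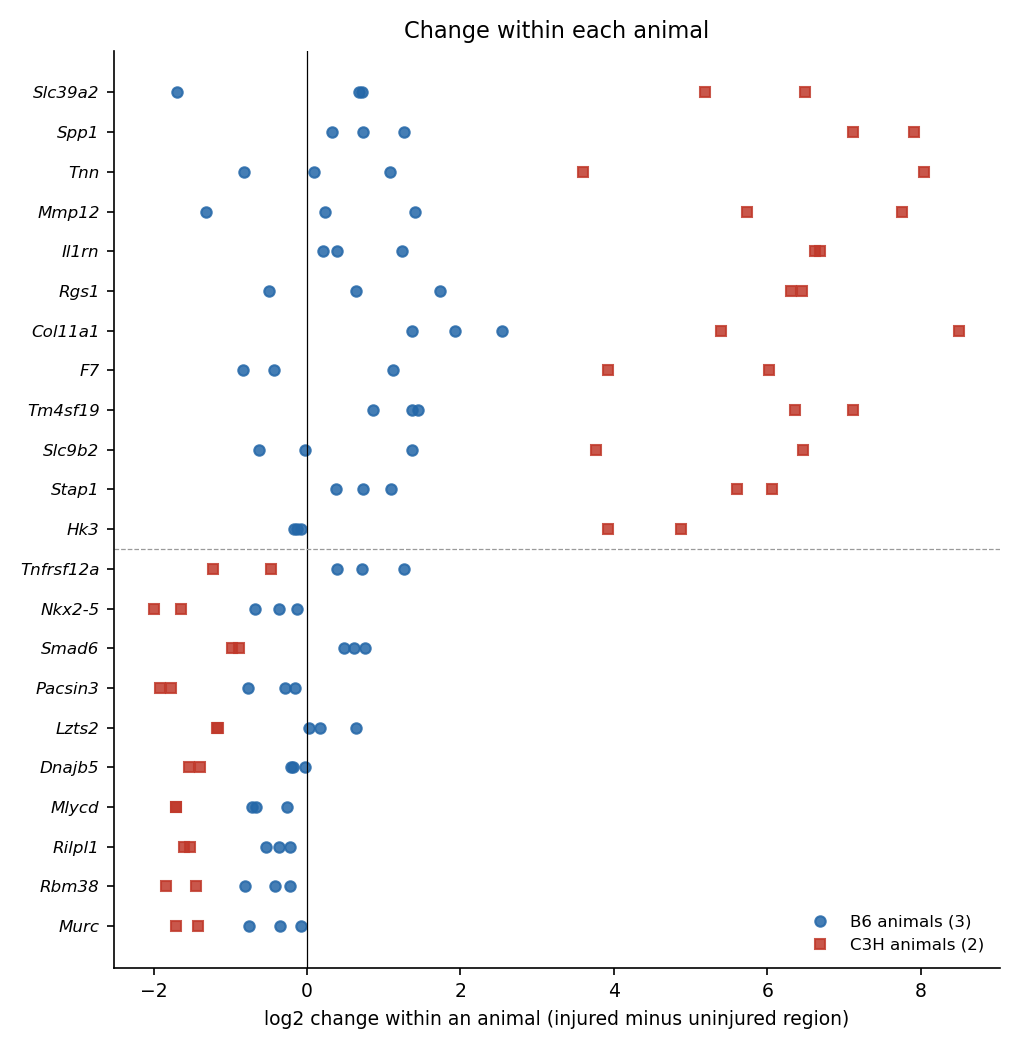
Change from the uninjured to the injured region within each animal (x axis, log2) for the 12 genes with the largest positive interaction and the 10 with a negative interaction past the test, in rows. Circles are the 3 B6 animals and squares the 2 C3H animals, and in each row both squares lie to 1 side of the 3 circles.

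Genes known from macrophages that have taken up lipid and debris held some of the largest interactions. Of 21 tested genes of a list for lipid-laden macrophages, 9 had a higher C3H effect and 0 a lower one. The 9 were Spp1, Gpnmb, Lgals3, Trem2, Msr1, Fabp5, Soat1, Cd9 and Plin2. Over all tested genes, here and for the lists below, these shares were 1.5% and 0.0678%. The median interaction was 1.91, with 17 positive and 4 negative values, down to -0.84. In C3H, 14 of the 21 rose and 1 fell with injury by the test. Without C3H injured library 2 the median was 1.58, and without C3H injured library 1 it was 2.24. Spp1 encodes osteopontin, a secreted phosphoprotein that binds calcium mineral and is made by bone cells and activated macrophages. It had normalised read counts of 579, 1319 and 266 in B6 uninjured, 962, 1654 and 641 in B6 injured, 160.4, 377 and 356 in C3H uninjured and 38800.5 and 52487 in C3H injured regions. Both C3H injured libraries lay far above the other 9, among which the groups overlapped. The injury effect was 0.77 in B6 and 7.34 in C3H, with an interaction of 6.56 (SE 0.79, adjusted p = 0.00394), and it passed the test in all 11 fits that left out 1 library.

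Gpnmb, a membrane glycoprotein of phagocytes and melanocytes, had counts of 161, 62.2 and 157 in B6 uninjured, 556, 683 and 966 in B6 injured, 129, 397 and 363 in C3H uninjured and 26682 and 70193 in C3H injured regions. It was higher in every injured than in every uninjured library of both strains, by 2.61 in B6 and 7.35 in C3H, with an interaction of 4.74 (SE 0.75, adjusted p = 0.0110). Lgals3, the lectin galectin-3, had counts of 721, 512 and 282 in B6 uninjured, 1034, 1201 and 767 in B6 injured, 249.5, 316 and 337 in C3H uninjured and 7204 and 13236 in C3H injured regions. B6 injured libraries lay above the B6 uninjured ones and C3H injured libraries far above both, with an interaction of 3.96 (SE 0.51, adjusted p = 0.00431). Trem2, a lipid-sensing receptor of macrophages, had counts of 484, 477 and 296 in B6 uninjured, 941, 1169.7 and 603 in B6 injured, 216, 285 and 321 in C3H uninjured and 3603 and 4447 in C3H injured regions. Its injured and uninjured libraries did not overlap in C3H, with an interaction of 2.79 (SE 0.42, adjusted p = 0.00870). The scavenger receptor Msr1 (interaction 3.25, SE 0.47, adjusted p = 0.00644), the cholesterol-esterifying enzyme Soat1 (interaction 2.53, SE 0.36, adjusted p = 0.00559), the lipid droplet protein Plin2 (interaction 2.16, SE 0.30, adjusted p = 0.00539), the fatty acid binding protein Fabp5 (interaction 2.96, SE 0.59, adjusted p = 0.0285) and the tetraspanin Cd9 (interaction 2.32, SE 0.37, adjusted p = 0.0112) also passed. Plin2 and Cd9 had B6 effects of -0.01 and -0.02.

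The promoters of genes with a higher C3H effect were searched for short motifs of factors known from macrophages and osteoclasts, on both strands: GAGGAAGT of PU.1, the master factor of myeloid cells, TCATGTG (M-box) and TCACGTG (E-box) of the MITF and TFE family, which drives lysosomal genes, TGANTCA of AP-1, and TCAAGGTCA of the estrogen-related receptors. RefSeq promoters of GRCm38.p6, 250 bases before to 50 after a start, were at hand for 168 of the 221 genes and 11071 of the 14751 tested. The PU.1 letters were in a promoter of 25 of the 168 genes (14.9%), against 3.80% of all tested genes. For AP-1 this was 21 genes (12.5%) against 6.64%, for the M-box 11 (6.55%) against 2.76%, for the E-box 8 (4.76%) against 6.62%, and for the estrogen-related receptors 1 (0.595%) against 0.307%. Over all 32851 promoters of this length the shares were 3.20% for PU.1, 7.81% for AP-1, 3.77% for the M-box, 3.77% for the E-box and 0.423% for the estrogen-related receptors. These are counts of letters with no test, and a match is not a bound site. Matches of different motifs can share bases at their ends.

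The 150 bases before a start are shown for the 4 named genes with the largest interaction that hold a PU.1 or M-box match there, 5′ to 3′ on the gene's strand with PU.1, M-box and AP-1 matches in capitals. In Spp1 (chr5:104434961-104435110, plus strand) the PU.1 letters begin at base -113 from the start. In Mmp12 (chr9:7347224-7347373, plus strand) the M-box is at -83 on the opposite strand and AP-1 at -44. Another Mmp12 start, not shown, has the PU.1 letters at -88 on the opposite strand. In Acp5 (chr9:22130599-22130748, minus strand) the M-box is at -90 on the opposite strand. In Bcl2a1b (chr9:89199123-89199272, plus strand) the PU.1 letters begin at -148.
Spp1: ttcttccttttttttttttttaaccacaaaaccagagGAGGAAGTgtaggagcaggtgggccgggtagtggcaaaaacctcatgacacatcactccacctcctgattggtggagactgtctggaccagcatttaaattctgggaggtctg
Mmp12: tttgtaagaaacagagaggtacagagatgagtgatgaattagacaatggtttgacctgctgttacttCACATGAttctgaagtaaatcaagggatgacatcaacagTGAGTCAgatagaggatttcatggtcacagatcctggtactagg
Acp5: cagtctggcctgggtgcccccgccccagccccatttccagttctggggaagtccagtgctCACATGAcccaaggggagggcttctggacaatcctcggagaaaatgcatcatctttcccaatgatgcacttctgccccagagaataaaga
Bcl2a1b: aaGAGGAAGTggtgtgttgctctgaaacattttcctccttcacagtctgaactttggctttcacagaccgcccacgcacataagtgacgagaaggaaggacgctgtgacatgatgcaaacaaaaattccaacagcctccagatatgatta

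Lysosomal genes gave the most calls of any list, though by share the lipid-laden macrophage list gave more (9 of 21). Of 32 tested genes of the proton pump and lysosome, 12 had a higher C3H effect (1.5% of all tested) and 0 a lower one (0.0678%). The median interaction was 1.13, with median injury effects of 0.12 in B6 and 1.12 in C3H. Without C3H injured library 2 the median interaction was 0.89, and without C3H injured library 1 it was 1.40. Among the 12 were the cathepsins Ctsb, Ctsk, Ctsl, Ctss and Ctsz, the glycosidases Hexa and Gusb, the acid lipase Lipa, the cholesterol carrier Npc2 and Atp6v1a, the catalytic subunit of the proton pump. Ctsk, a collagen-degrading protease of osteoclasts, had counts of 962, 624 and 368 in B6 uninjured, 1071, 969 and 598 in B6 injured, 466, 421 and 546 in C3H uninjured and 4439 and 13122 in C3H injured regions. The C3H injured libraries lay apart from each other, yet both exceeded all 9 others, with an interaction of 3.51 (SE 0.62, adjusted p = 0.0166). Ctss, a protease of antigen-presenting cells, had counts of 3212, 5572 and 1713 in B6 uninjured, 4795, 6410.3 and 3443 in B6 injured, 993, 2203 and 1016 in C3H uninjured and 19401 and 33949.8 in C3H injured regions. For Ctss the interaction was 3.70 (SE 0.66, adjusted p = 0.0170). Here C3H uninjured libraries 1 and 3 lay below all B6 libraries and the C3H injured libraries above all of them.

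Ctsl had counts of 5624, 6452 and 4459 in B6 uninjured, 6051, 5553 and 4594 in B6 injured, 4974, 13614 and 6515 in C3H uninjured and 33507 and 77981 in C3H injured regions. For Ctsl both C3H injured libraries lay above all others, the B6 groups overlapped, and the interaction was 2.77 (SE 0.57, adjusted p = 0.0321). Its effect in B6 was -0.02. Gusb, beta-glucuronidase, had 1221, 1116 and 748 in B6 uninjured, 1354, 1305 and 1154 in B6 injured, 864, 768 and 1064 in C3H uninjured and 5717 and 9507 in C3H injured regions. For Gusb the interaction was 2.71 (SE 0.37, adjusted p = 0.00516). Its C3H injured libraries did not overlap with any others. Atp6v1a had 776, 786 and 813 in B6 uninjured, 969, 1055 and 964 in B6 injured, 725, 603 and 678 in C3H uninjured and 3020.5 and 5004 in C3H injured regions. For Atp6v1a both C3H injured libraries lay above all others, B6 injured libraries lay above B6 uninjured ones, and the interaction was 2.21 (SE 0.30, adjusted p = 0.00516). The other pump subunits tested were Atp6v0a1, Atp6v0b, Atp6v0d1, Atp6v0d2, Atp6v1b2, Atp6v1c1, Atp6v1d, Atp6v1e1 and Atp6v1h, and none of these 9 passed. Atp6v0d2, the subunit of macrophages and osteoclasts, had the largest value in the list but also a large error, with counts of 8.28, 8.30 and 2.36 in B6 uninjured, 53.0, 13.4 and 40.4 in B6 injured, 8.91, 57.6 and 28.4 in C3H uninjured and 1644 and 3706 in C3H injured regions. For Atp6v0d2 both C3H injured libraries lay above all others, B6 injured libraries lay above B6 uninjured ones, and the interaction was 4.32 (SE 1.05, adjusted p = 0.0671). With the animal as a fixed block its adjusted p was 0.0163. The protease Ctsd had an interaction of 1.23 (SE 0.40, adjusted p = 0.179). In 27 of the 32 genes both C3H animals changed more than all 3 B6 animals.

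Among 15 tested osteoclast and cell fusion genes, 4 had a higher C3H effect (Acp5, Itgb3, Tyrobp and Ccr1) and 0 a lower one. The median interaction was 2.41. Acp5, tartrate-resistant acid phosphatase, had counts of 172, 149 and 95.4 in B6 uninjured, 201, 437 and 179 in B6 injured, 87.1, 286 and 91.5 in C3H uninjured and 1862 and 7437 in C3H injured regions. For Acp5 the interaction was 3.92 (SE 0.84, adjusted p = 0.0403). The C3H injured libraries lay far apart from each other, and both exceeded all others. Itgb3, the integrin beta3 subunit by which osteoclasts hold to bone, had counts of 163, 80.9 and 115 in B6 uninjured, 213, 165 and 142 in B6 injured, 121, 97.4 and 80.8 in C3H uninjured and 658 and 1271 in C3H injured regions. For Itgb3 both C3H injured libraries lay above all others, the B6 groups overlapped, and the interaction was 2.64 (SE 0.49, adjusted p = 0.0226). Tyrobp, the adaptor of Trem2, had 1458, 1172 and 683 in B6 uninjured, 1794, 2193 and 1301 in B6 injured, 431, 756 and 502 in C3H uninjured and 4300.3 and 6011 in C3H injured regions. For Tyrobp the interaction was 2.51 (SE 0.47, adjusted p = 0.0228). For Tyrobp the B6 uninjured and injured libraries overlapped, and C3H uninjured libraries 1 and 3 lay below all B6 libraries. Dcstamp, needed for the fusion of osteoclasts, had 0 reads in B6 uninjured regions and counts of 12.97 and 41.7 in C3H injured regions against 1.72 or less in all other libraries. Dcstamp passed the filter through the C3H injured libraries alone, and it counts in the median of this list. Tnfrsf11a, the receptor RANK, had an interaction of 2.51 (adjusted p = 0.0530) and its ligand Tnfsf11 one of 4.10 (adjusted p = 0.199). Nfatc1, the main transcription factor of osteoclasts, had 1.09 (adjusted p = 0.257).

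Macrophage markers moved with these genes. Of 14 tested markers of macrophages and monocytes, 5 had a higher C3H effect (Cd68, Adgre1, Lyz2, Cd14 and Mpeg1), 0 a lower one, and the median interaction was 1.86. Their summed normalised count was 37914, 37171 and 26085 in B6 uninjured, 49459, 61644 and 43674 in B6 injured, 16452, 25082 and 14961 in C3H uninjured and 87671 and 156878 in C3H injured regions. The C3H injured libraries had the most, and the C3H uninjured libraries the least. In bulk tissue more cells of a type and more RNA per cell cannot be told apart. Cd68 had counts of 536, 394 and 445 in B6 uninjured, 750.1, 1068 and 984 in B6 injured, 351, 544 and 404 in C3H uninjured and 6002 and 8740.4 in C3H injured regions. For Cd68 both C3H injured libraries lay above all others, B6 injured libraries lay above B6 uninjured ones, and the interaction was 3.07 (SE 0.36, adjusted p = 0.00394). Lyz2, which shares sequence with its neighbour Lyz1, had 14249, 16288 and 10453 in B6 uninjured, 19867, 21202 and 15408 in B6 injured, 6196, 10017 and 6327 in C3H uninjured and 44705 and 75536 in C3H injured regions. For Lyz2 both C3H injured libraries lay above all others, the B6 groups overlapped, and the interaction was 2.51 (SE 0.44, adjusted p = 0.0162). The markers differed among themselves: the complement gene C1qa had an interaction of 0.63 (adjusted p = 0.612), Csf1r one of 1.69 (adjusted p = 0.0743) and Ly6c2 one of -0.53 (adjusted p = 0.774). Of the 221 genes, 193 had a larger interaction than the median marker and 55 a larger one than Mpeg1, the highest marker at 3.20. The 221 were called for a large interaction and the markers were not, so these counts follow in part from the call. The part of macrophage number in the 221 was not tested. With the animal as a fixed block 9 of the 14 markers passed.

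Resident macrophage genes gave few calls. Of 17 tested, 1 had a higher C3H effect, and the median interaction was 0.14, with medians of -0.05 in B6 and -0.01 in C3H. Without C3H injured library 1 the median interaction was 0.74. The 1 gene was Cx3cr1, the fractalkine receptor, with counts of 276, 219.8 and 209 in B6 uninjured, 236, 525 and 517 in B6 injured, 68.3, 41.9 and 79.9 in C3H uninjured and 1511 and 1059 in C3H injured regions. For Cx3cr1 both C3H injured libraries lay above all others, the B6 groups overlapped, and the interaction was 3.57 (SE 0.51, adjusted p = 0.00589). It was 1.91 lower in C3H than in B6 uninjured regions (adjusted p = 0.00987) and 1.66 higher in injured regions (adjusted p = 0.0254). The mannose receptor Mrc1 had an interaction of 0.89 (adjusted p = 0.494). Neutrophil markers had a median interaction of 1.07 with 0 of 7 called, and their summed count was highest in C3H uninjured library 2 (1884) and C3H injured library 2 (1452), the regions of the same animal, against 753 or less elsewhere. Their median was 2.48 without C3H injured library 1 and -0.25 without C3H injured library 2, so its sign rests on 1 library. Markers of T and NK cells had a median of -0.48 with 0 of 13 called, which was 0.10 without B6 uninjured library 3. Those of B cells had -0.47 with 0 of 7 called, which was -1.21 without C3H injured library 1 and 0.28 without C3H injured library 2.

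**Figure D3:**
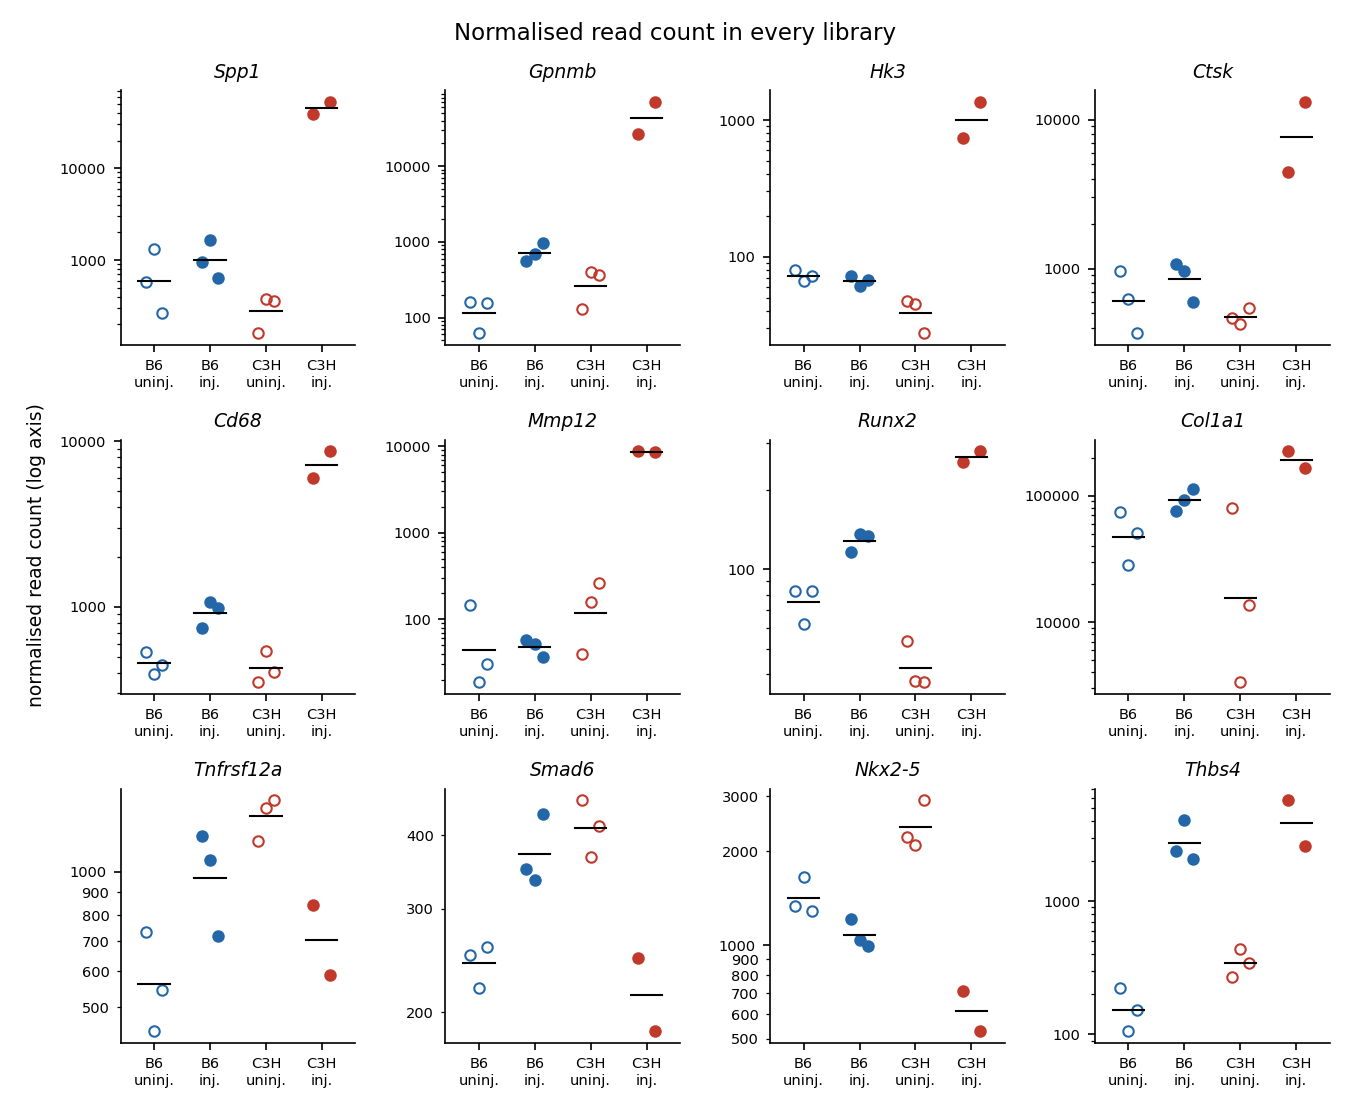
Normalised read count (log axis) of 12 genes in each library, by group. Open circles are uninjured and filled circles injured regions, B6 in blue and C3H in red, and bars are means on the log2 scale. For Spp1, Gpnmb, Hk3, Ctsk, Cd68, Mmp12, Runx2 and Col1a1 both C3H injured libraries are above all others, and for Nkx2-5 both are below all others. For Thbs4 the injured libraries of both strains are above the uninjured ones.

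Signalling genes of inflammation separated the strains in part. Of 27 tested cytokines, chemokines and their receptors, 4 had a higher C3H effect (Il1rn, Csf2rb, Cxcl14 and Cxcl16), 0 a lower one, and the median interaction was 1.67. Il1rn, the interleukin 1 receptor antagonist, had counts of 21.3, 93.3 and 25.9 in B6 uninjured, 51.4, 108 and 34.4 in B6 injured, 31.7, 48.2 and 40.8 in C3H uninjured and 3207 and 5061 in C3H injured regions. For Il1rn the interaction was 6.02 (SE 0.80, adjusted p = 0.00516). The 2 C3H injured libraries lay far above all others, and the groups of the others overlapped. Il1b itself had counts of 63.9, 56.0 and 8.25 in B6 uninjured, 98.7, 148 and 24.9 in B6 injured, 7.92, 7.33 and 1.78 in C3H uninjured and 85.6 and 23.3 in C3H injured regions. For Il1b the interaction was 1.79 (SE 1.30, adjusted p = 0.584). Its C3H uninjured libraries lay below all others, and the other groups overlapped. Csf2rb, the shared receptor subunit of GM-CSF, had 222, 159.7 and 167 in B6 uninjured, 303, 449 and 382 in B6 injured, 158, 250.2 and 107 in C3H uninjured and 1367 and 2244 in C3H injured regions. For Csf2rb both C3H injured libraries lay above all others, B6 injured libraries lay above B6 uninjured ones, and the interaction was 2.39 (SE 0.48, adjusted p = 0.0285). The chemokine Cxcl14 had 503, 593 and 539.7 in B6 uninjured, 561, 725 and 634 in B6 injured, 334, 902 and 445 in C3H uninjured and 2239 and 3159 in C3H injured regions. For Cxcl14 both C3H injured libraries lay above all others, the B6 groups overlapped, and the interaction was 2.15 (SE 0.46, adjusted p = 0.0406). With the fixed block 10 of the 27 passed. Genes of the interferon response had 0 of 25 called and a median of 0.21, which was -0.12 without C3H injured library 1 and 0.66 without C3H injured library 2. Mx1, an antiviral GTPase, had the smallest p of these, with counts of 134, 43.6 and 34.2 in B6 uninjured, 60.3, 174 and 95.4 in B6 injured, 12.9, 8.38 and 10.7 in C3H uninjured and 131 and 81.3 in C3H injured regions. For Mx1 C3H injured libraries lay above C3H uninjured ones but not above all B6 ones, the B6 groups overlapped, and the interaction was 2.42 (SE 0.79, adjusted p = 0.180). Genes of MHC and antigen presentation had 0 of 16 called and a median of 0.75, with 1.30 (adjusted p = 0.143) for H2-DMa.

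Enzymes that cut the matrix were among the called genes. Of 26 tested genes of matrix remodelling, 6 had a higher C3H effect (Mmp12, Mmp13, Adam8, Mmp19, Plau and Mmp14) and 0 a lower one, with a median interaction of 1.47. Mmp12, the macrophage metalloelastase, had counts of 146, 18.7 and 30.6 in B6 uninjured, 57.9, 51.1 and 36.1 in B6 injured, 39.6, 158 and 260.2 in C3H uninjured and 8783 and 8504 in C3H injured regions. Both C3H injured libraries lay far above all others. Its B6 effect was 0.11 and its C3H effect 6.18, with an interaction of 6.08 (SE 1.08, adjusted p = 0.0172). Mmp13, a collagenase of bone and cartilage, had 34.3, 14.5 and 30.6 in B6 uninjured, 17.1, 22.0 and 18.1 in B6 injured, 7.92, 2.09 and 8.88 in C3H uninjured and 199.8 and 70.7 in C3H injured regions. For Mmp13 both C3H injured libraries lay above all others, the B6 groups overlapped, and the interaction was 4.58 (SE 0.85, adjusted p = 0.0218). The membrane protease Adam8 had 66.3, 64.3 and 81.3 in B6 uninjured, 115, 190.1 and 248 in B6 injured, 81.2, 127 and 35.5 in C3H uninjured and 1895 and 5463 in C3H injured regions. For Adam8 both C3H injured libraries lay above all others, B6 injured libraries lay above B6 uninjured ones, and the interaction was 4.16 (SE 0.72, adjusted p = 0.0161). Mmp14, which activates other metalloproteinases at the cell surface, had 2765, 2153 and 1531 in B6 uninjured, 3539.5, 3691 and 3461 in B6 injured, 1692, 929.6 and 1045 in C3H uninjured and 8969.9 and 7699 in C3H injured regions. For Mmp14 both C3H injured libraries lay above all others, B6 injured libraries lay above B6 uninjured ones, and the interaction was 2.04 (SE 0.39, adjusted p = 0.0245). In the fixed-block fit 10 of the 26 passed.

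None of 32 collagen and matrix genes passed, although 29 had a positive interaction and the median was 1.67. Of these genes, 27 rose with injury in C3H, and the median effect was 0.95 in B6 and 3.03 in C3H. Col1a1, the main chain of type I collagen, had counts of 74734, 28299 and 50472 in B6 uninjured, 75903, 91923 and 113665 in B6 injured, 79234, 3346 and 13753 in C3H uninjured and 225512 and 165107 in C3H injured regions. Both C3H injured libraries exceeded all others, and the interaction was 2.68 (SE 1.26, adjusted p = 0.366). C3H uninjured library 1 stood among the B6 injured libraries, far above the other C3H uninjured ones. Postn, periostin of activated fibroblasts, had 32634, 14131 and 14407 in B6 uninjured, 47239, 39657 and 31878 in B6 injured, 7439, 974 and 3150.4 in C3H uninjured and 37864 and 24008 in C3H injured regions. For Postn C3H injured libraries lay above C3H uninjured ones but not above all B6 ones, the B6 groups overlapped, and the interaction was 2.35 (SE 0.88, adjusted p = 0.245). With the fixed block it passed (adjusted p = 0.0468). Lox, which crosslinks collagen, had the smallest p of the list, with 4724, 2657 and 2218 in B6 uninjured, 6064, 5851 and 5004 in B6 injured, 1123, 1335 and 344 in C3H uninjured and 6075 and 7560.3 in C3H injured regions. For Lox both C3H injured libraries lay above all others, B6 injured libraries lay above B6 uninjured ones, and the interaction was 2.19 (SE 0.65, adjusted p = 0.142). With the fixed block it passed (adjusted p = 0.0207). In that fit 8 of the 32 passed. The absence of calls also rests on C3H uninjured library 1: without it 9 of the 32 passed with a higher C3H effect, namely Col1a1 (adjusted p = 0.0330), Col1a2, Col5a2, Col12a1 (adjusted p = 0.00887), Fn1, Tnc, Thbs1, Thbs2 and Vcan.

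Of 23 tested genes of TGF-beta signalling and myofibroblasts, 3 had a higher C3H effect (Runx1, Tgfbi and Itgav), 0 a lower one, and the median interaction was 0.48. Runx1, a transcription factor of blood cells that injured heart tissue also expresses, had counts of 293, 174 and 202 in B6 uninjured, 380.0, 521 and 534 in B6 injured, 127, 72.2 and 58.6 in C3H uninjured and 1442 and 1167 in C3H injured regions. For Runx1 both C3H injured libraries lay above all others, B6 injured libraries lay above B6 uninjured ones, and the interaction was 2.86 (SE 0.46, adjusted p = 0.0113). Tgfbi, a matrix protein induced by TGF-beta, had 950.1, 834 and 858 in B6 uninjured, 981, 1648 and 1130.3 in B6 injured, 532, 756 and 410.2 in C3H uninjured and 3586 and 3851 in C3H injured regions. For Tgfbi both C3H injured libraries lay above all others, B6 injured libraries lay above B6 uninjured ones, and the interaction was 2.28 (SE 0.37, adjusted p = 0.0122). Itgav, the alpha-V integrin subunit that pairs with Itgb3, had 1074, 1134 and 1123 in B6 uninjured, 1518, 1603 and 1523 in B6 injured, 1016, 767 and 865 in C3H uninjured and 3142 and 2851 in C3H injured regions. For Itgav the interaction was 1.29 (SE 0.25, adjusted p = 0.0264). The 4 groups did not overlap, with C3H uninjured lowest and C3H injured highest. Of these 23, 6 passed with the fixed block. Fibroblast markers had a median interaction of 0.37 with 0 of 12 called.

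Genes of cartilage and bone formation gave few calls. Of 12 cartilage genes tested, Col11a1 alone passed. This minor chain of cartilage collagen had counts of 48.5, 122 and 28.3 in B6 uninjured, 187, 319 and 170.2 in B6 injured, 96.0, 7.33 and 12.4 in C3H uninjured and 4081 and 3024 in C3H injured regions. For Col11a1 the interaction was 5.36 (SE 1.15, adjusted p = 0.0391). Its B6 injured libraries all exceeded the B6 uninjured ones, and the C3H injured ones were far above both. Among fits that kept both C3H injured libraries, the Col11a1 call was lost without B6 uninjured library 1 and without any 1 B6 injured library. It was also lost without C3H uninjured library 2 or 3. Fits with 1 C3H injured library are left out of this account, so it does not show that the call holds without either of them. Of 14 bone formation genes, Runx2 and Tnn passed, and the median interaction was 0.02, with a sign that changed under 4 alternatives. Leaving out 1 library gave 0 to 3 calls in this list. Runx2, the master factor of osteoblasts, had counts of 82.8, 62.2 and 82.5 in B6 uninjured, 117, 136 and 133 in B6 injured, 53.5, 37.7 and 37.3 in C3H uninjured and 254 and 281 in C3H injured regions. For Runx2 the interaction was 1.87 (SE 0.39, adjusted p = 0.0337). The 4 groups did not overlap, in the order C3H uninjured, B6 uninjured, B6 injured and C3H injured. With the fixed block its adjusted p was 0.0520. Tnn, tenascin-W of bone-forming and scar tissue, had 39.0, 39.4 and 49.5 in B6 uninjured, 41.6, 84.8 and 27.5 in B6 injured, 239.6, 12.6 and 11.5 in C3H uninjured and 2909 and 3565 in C3H injured regions. For Tnn the interaction was 6.43 (SE 1.32, adjusted p = 0.0318). C3H uninjured library 1, which was also high for Col1a1, lay far above the other C3H uninjured libraries. Alpl, the phosphatase that removes the mineralization inhibitor pyrophosphate, had 734, 518 and 747 in B6 uninjured, 687, 694 and 719 in B6 injured, 973, 548 and 812 in C3H uninjured and 471 and 271 in C3H injured regions. For Alpl both C3H injured libraries lay below all others, the B6 groups overlapped, and the interaction was -1.17 (SE 0.40, adjusted p = 0.198).

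None of 16 genes of mineralization inhibitors and phosphate handling passed, and the median interaction was 0.28. Enpp1, which makes pyrophosphate, had the smallest p, with counts of 697, 389.9 and 456 in B6 uninjured, 784, 1031 and 929 in B6 injured, 494, 223 and 292 in C3H uninjured and 3058 and 1502 in C3H injured regions. For Enpp1 the interaction was 1.88 (SE 0.51, adjusted p = 0.104). Both C3H injured libraries exceeded all others, and the adjusted p was 0.0206 with the fixed block. Abcc6, the transporter gene known for the calcification of C3H mice, is not analysed here.

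The other genes with the largest interactions were of several kinds. Slc39a2, a zinc importer, had counts of 4.73, 12.4 and 5.89 in B6 uninjured, 8.15, 3.14 and 10.3 in B6 injured, 1.98, 6.28 and 0 in C3H uninjured and 266 and 265 in C3H injured regions. For Slc39a2 both C3H injured libraries lay above all others, the B6 groups overlapped, and the interaction was 6.68 (SE 1.08, adjusted p = 0.0115). This was the largest value of all tested genes, from 8 reads in C3H uninjured and 683 in C3H injured regions. Hk3, the hexokinase of myeloid cells, had 80.5, 66.4 and 71.9 in B6 uninjured, 71.8, 60.5 and 67.9 in B6 injured, 47.5, 45.0 and 27.5 in C3H uninjured and 733 and 1354 in C3H injured regions. For Hk3 both C3H injured libraries lay above all others, the B6 groups overlapped, and the interaction was 4.77 (SE 0.46, adjusted p = 0.00319). It was the 1 gene of 25 in the glycolysis and hypoxia list that passed, while the median of that list was -0.50. In B6 the 3 animals changed by -0.16, -0.13 and -0.08, and in C3H by 3.92 and 4.88. Rgs1, a regulator of chemokine receptor signalling, had 13.02, 20.7 and 4.71 in B6 uninjured, 8.97, 33.0 and 18.1 in B6 injured, 4.95, 5.23 and 2.66 in C3H uninjured and 470.4 and 547 in C3H injured regions. For Rgs1 both C3H injured libraries lay above all others, the B6 groups overlapped, and the interaction was 6.00 (SE 0.86, adjusted p = 0.00589). F7, coagulation factor VII, had 50.9, 109.9 and 31.8 in B6 uninjured, 37.5, 61.3 and 70.5 in B6 injured, 33.7, 14.7 and 10.7 in C3H uninjured and 527 and 1013 in C3H injured regions. For F7 both C3H injured libraries lay above all others, the B6 groups overlapped, and the interaction was 5.35 (SE 0.78, adjusted p = 0.00623). Slc9b2, a sodium/proton exchanger of osteoclasts, had 22.5, 24.9 and 7.07 in B6 uninjured, 22.0, 15.7 and 19.8 in B6 injured, 5.94, 3.14 and 3.55 in C3H uninjured and 93.4 and 365 in C3H injured regions. For Slc9b2 both C3H injured libraries lay above all others, the B6 groups overlapped, and the interaction was 4.96 (SE 0.88, adjusted p = 0.0174). Stap1, an adaptor of immune receptor signalling, had 15.4, 20.7 and 14.1 in B6 uninjured, 20.4, 45.6 and 24.1 in B6 injured, 4.95, 4.19 and 7.10 in C3H uninjured and 289 and 346 in C3H injured regions. For Stap1 both C3H injured libraries lay above all others, the B6 groups overlapped, and the interaction was 4.92 (SE 0.61, adjusted p = 0.00417). Tm4sf19 had 0 reads in B6 uninjured regions, so that no fitted interaction is given. Its counts were 0.815, 1.57 and 1.72 in B6 injured, 0.990, 2.09 and 4.44 in C3H uninjured and 163 and 429 in C3H injured regions (adjusted p = 0.0261). Tm4sf19 passed the filter through the C3H injured libraries alone.

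Several genes kept their call without any 1 of the 11 libraries. Itgax, the integrin CD11c of dendritic cells and macrophages, had counts of 27.2, 22.8 and 35.4 in B6 uninjured, 93.8, 109 and 97.1 in B6 injured, 22.8, 48.2 and 54.2 in C3H uninjured and 2765 and 5132 in C3H injured regions. For Itgax the interaction was 4.76 (SE 0.54, adjusted p = 0.00364). Alcam, an adhesion molecule of activated leukocytes, had 109, 124 and 91.9 in B6 uninjured, 152, 216 and 181 in B6 injured, 114, 106 and 99.4 in C3H uninjured and 1518 and 2258 in C3H injured regions. For Alcam the interaction was 3.36 (SE 0.36, adjusted p = 0.00319). Lcp1, the actin bundler L-plastin of white blood cells, had 1410.4, 1168 and 1117 in B6 uninjured, 1772, 2680.4 and 1909 in B6 injured, 658, 555 and 595 in C3H uninjured and 7156 and 8664 in C3H injured regions. For Lcp1 the interaction was 2.94 (SE 0.30, adjusted p = 0.00319). Gpr137b, a lysosomal membrane protein, had 211, 156 and 191 in B6 uninjured, 206, 227 and 228 in B6 injured, 164, 171 and 181 in C3H uninjured and 1241 and 2258 in C3H injured regions. For Gpr137b the interaction was 3.02 (SE 0.36, adjusted p = 0.00394). Reads may be split between it and its near copy Gpr137b-ps (interaction 2.99), which was not tested. Slc37a2, a sugar phosphate transporter of macrophages, had 137, 131 and 202 in B6 uninjured, 189, 281 and 282 in B6 injured, 181, 122 and 131 in C3H uninjured and 2236 and 4163 in C3H injured regions. For Slc37a2 the interaction was 3.73 (SE 0.44, adjusted p = 0.00394). Zranb3, a DNA repair enzyme, had 82.8, 91.2 and 79.0 in B6 uninjured, 89.7, 59.7 and 88.5 in B6 injured, 69.3, 78.5 and 79.9 in C3H uninjured and 661 and 519 in C3H injured regions. For Zranb3 the interaction was 3.04 (SE 0.38, adjusted p = 0.00417). In each of these both C3H injured libraries exceeded all others. These genes are named after their values were seen. Atf3, a stress-induced transcription factor and the 1 of 21 genes of the ATF4 list that passed, had 129, 109.9 and 94.3 in B6 uninjured, 181, 197 and 138 in B6 injured, 90.1, 168 and 141 in C3H uninjured and 1313 and 1570.2 in C3H injured regions. For Atf3 both C3H injured libraries lay above all others, B6 injured libraries lay above B6 uninjured ones, and the interaction was 2.85 (SE 0.41, adjusted p = 0.00589). The call was kept in 10 of 11 such fits.

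The 10 genes with a lower C3H effect were Tnfrsf12a, Nkx2-5, Smad6, Pacsin3, Lzts2, Dnajb5, Mlycd, Rilpl1, Rbm38 and Murc, and 10 of the 10 fell with injury in C3H. These calls depend on single libraries. Among fits that kept both C3H injured libraries, the number called lower was 0 without B6 uninjured library 1, B6 injured library 1 or 2, or C3H uninjured library 3. It was 1 without B6 injured library 3. Fits with 1 C3H injured library are left out of this account, so it does not show that these calls hold without either of them. A fit without the mean-variance trend called 2 lower. Tnfrsf12a, the TWEAK receptor Fn14, had counts of 732, 442 and 547 in B6 uninjured, 1199, 1061 and 718 in B6 injured, 1167, 1386 and 1443 in C3H uninjured and 841 and 590.0 in C3H injured regions. It was higher in the injured region in 3 of 3 B6 animals and lower in 2 of 2 C3H animals, with an interaction of -1.70 (SE 0.38, adjusted p = 0.0492). Smad6, an inhibitor of BMP signalling, had 251, 219.8 and 258 in B6 uninjured, 351, 335 and 435 in B6 injured, 459, 367 and 415 in C3H uninjured and 247 and 186 in C3H injured regions. B6 injured libraries lay above all B6 uninjured ones and C3H injured libraries below all C3H uninjured ones, with an interaction of -1.55 (SE 0.31, adjusted p = 0.0296). Lzts2, an inhibitor of Wnt signalling, had 1041, 703 and 927 in B6 uninjured, 1059, 1092 and 1044 in B6 injured, 1815, 1816 and 1444 in C3H uninjured and 814 and 806 in C3H injured regions. For Lzts2 C3H injured libraries lay below C3H uninjured ones but not below all B6 ones, B6 injured libraries lay above B6 uninjured ones, and the interaction was -1.33 (SE 0.29, adjusted p = 0.0396).

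Nkx2-5, a core transcription factor of heart muscle, had 1333, 1655 and 1286 in B6 uninjured, 1214, 1036 and 995 in B6 injured, 2231, 2101 and 2921 in C3H uninjured and 712 and 529 in C3H injured regions. For Nkx2-5 the interaction was -1.57 (SE 0.31, adjusted p = 0.0264). Both C3H injured libraries lay below all others and the C3H uninjured ones above. Pacsin3, a membrane-bending protein of muscle, had 3030.1, 3248 and 2429.8 in B6 uninjured, 2710.3, 1901 and 1999 in B6 injured, 4461, 3557 and 4356 in C3H uninjured and 1186 and 1040.2 in C3H injured regions. For Pacsin3 both C3H injured libraries lay below all others, the B6 groups overlapped, and the interaction was -1.48 (SE 0.30, adjusted p = 0.0318). Dnajb5, a co-chaperone, had 1261, 1172 and 1077 in B6 uninjured, 1239, 1031 and 932 in B6 injured, 2317, 2024 and 1949.9 in C3H uninjured and 795 and 766 in C3H injured regions. For Dnajb5 both C3H injured libraries lay below all others, the B6 groups overlapped, and the interaction was -1.28 (SE 0.26, adjusted p = 0.0318). Mlycd, malonyl-CoA decarboxylase, which relieves the block on fatty acid entry into mitochondria, had 2294, 3117 and 2484 in B6 uninjured, 1912, 1896 and 1564 in B6 injured, 2412, 2350.3 and 2845 in C3H uninjured and 740.2 and 719 in C3H injured regions. For Mlycd both C3H injured libraries lay below all others, B6 injured libraries lay below B6 uninjured ones, and the interaction was -1.24 (SE 0.28, adjusted p = 0.0469). Rilpl1 (interaction -1.24, SE 0.25, adjusted p = 0.0308), the RNA-binding protein Rbm38 (interaction -1.24, SE 0.27, adjusted p = 0.0465) and the caveolar muscle protein Murc (interaction -1.18, SE 0.26, adjusted p = 0.0471) also passed, with both C3H injured libraries below all others. With the fixed block Rbm38 and Murc had adjusted p of 0.0568 and 0.0559. Both C3H injured libraries lay below all 9 others for 7 of the 10 genes, against 16.1% of all tested, a count on the values that gave the calls.

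Lists of heart muscle metabolism and contraction had lower median effects in C3H than in B6, but 1 of their genes passed the test. All 29 tested genes of the respiratory chain and TCA cycle had a negative interaction, from -1.56 to -0.65, and 0 passed. The median effect was -0.79 in B6 and -1.78 in C3H, where 29 of the 29 fell. Cyc1, cytochrome c1, had counts of 17514, 17789 and 14905 in B6 uninjured, 13900.5, 11224 and 9888 in B6 injured, 16885, 12914 and 22137 in C3H uninjured and 6268 and 4122 in C3H injured regions. For Cyc1 both C3H injured libraries lay below all others, B6 injured libraries lay below B6 uninjured ones, and the interaction was -1.20 (SE 0.39, adjusted p = 0.180). Fatty acid oxidation had 25 of 25 negative interactions with a median of -0.99, and Mlycd alone passed. Sarcomere genes had a median of -0.96 with 0 of 22 passing, among them Tcap, the titin cap, with 47830.3, 68863 and 27423 in B6 uninjured, 28369, 20911 and 17617 in B6 injured, 58687, 66860.0 and 71698 in C3H uninjured and 9726 and 11914 in C3H injured regions. For Tcap both C3H injured libraries lay below all others, the B6 groups overlapped, and the interaction was -1.57 (SE 0.51, adjusted p = 0.176). Calcium handling and ion channel genes had a median of -0.68 with 0 of 21 passing, and the potassium channel subunit Kcnip2 had 2410.2, 2891 and 2839 in B6 uninjured, 1829, 1356 and 1989.9 in B6 injured, 4435, 4487 and 5803 in C3H uninjured and 1467 and 1032 in C3H injured regions. For Kcnip2 C3H injured libraries lay below C3H uninjured ones but not below all B6 ones, B6 injured libraries lay below B6 uninjured ones, and the interaction was -1.32 (SE 0.32, adjusted p = 0.0719). Cardiomyocyte markers gave a median of -1.16 with 0 of 12 passing, and Myh6 one of -0.80 (SE 0.60, adjusted p = 0.597). The part of muscle share in these lists was not tested. Genes within a list share the same libraries and are not independent.

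**Figure D4:**
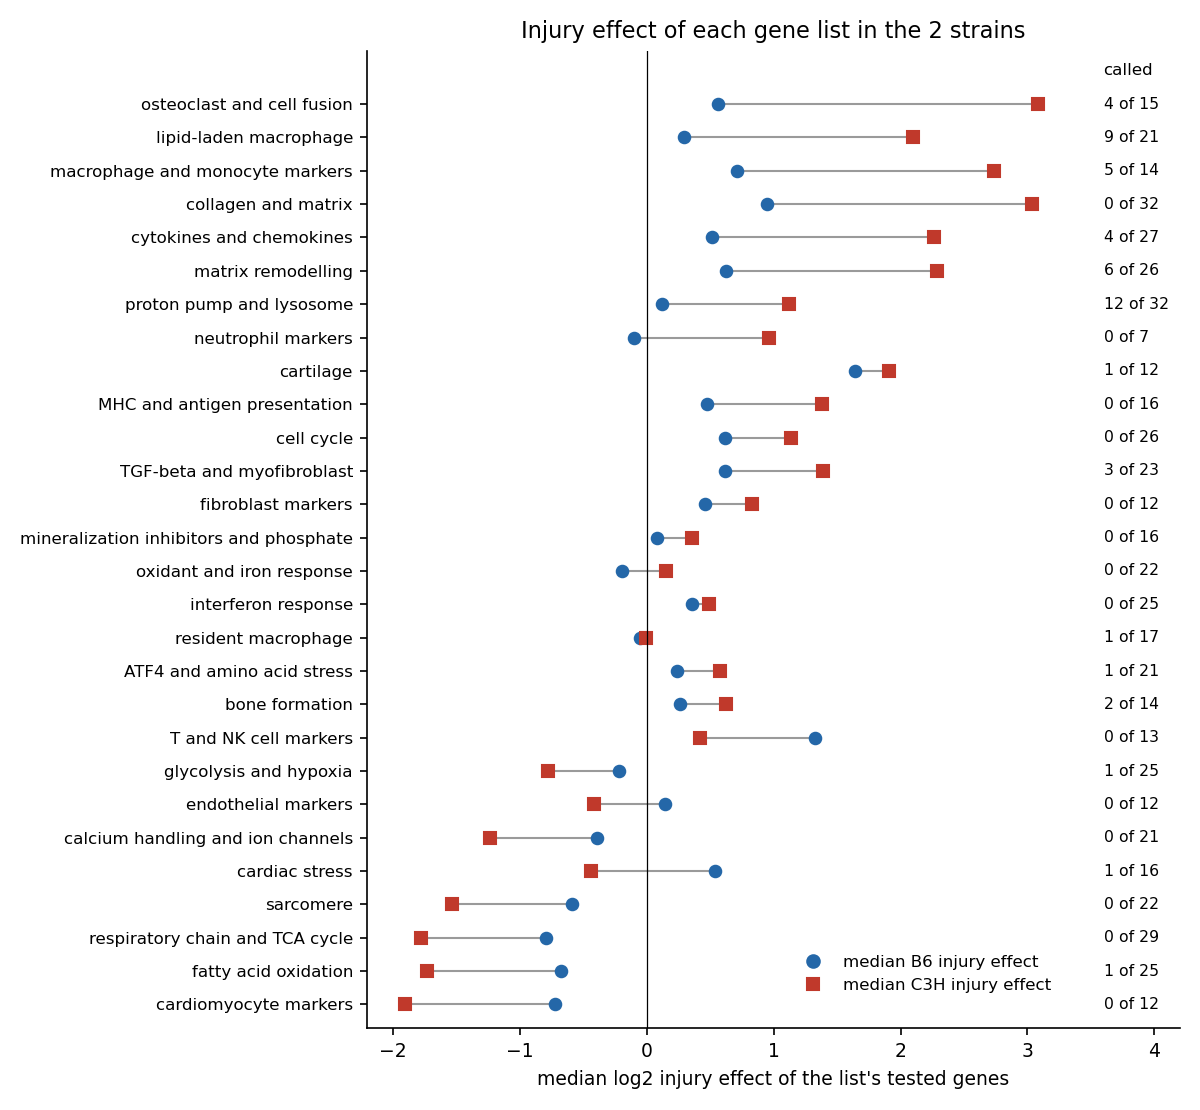
Median injury effect (x axis, log2) of the tested genes of 22 pathway and 6 marker lists in B6 (circles) and C3H (squares), ordered by median interaction, with the number of genes whose interaction passed the test. The widest gaps to the right are those of osteoclast, macrophage and matrix lists, and lists of heart muscle lie to the left, with lower medians in C3H.

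Cell cycle genes had a median interaction of 0.63 with 0 of 26 called, and Bub1b, a mitotic checkpoint kinase, had the smallest p (interaction 2.05, adjusted p = 0.368). The oxidant and iron list had a median of 0.24 with 0 of 22 called. Its smallest p was that of Ftl1, the ferritin light chain, with 8243, 6788 and 4054 in B6 uninjured, 8666, 8144 and 6834 in B6 injured, 3947, 6652 and 5945 in C3H uninjured and 19625 and 27478 in C3H injured regions. For Ftl1 both C3H injured libraries lay above all others, the B6 groups overlapped, and the interaction was 1.75 (SE 0.44, adjusted p = 0.0791). It passed with the fixed block (adjusted p = 0.0130). The cardiac stress list had a median of -0.74 with only Tnfrsf12a called of 16. Endothelial markers had a median of -0.60 with 0 of 12 called, mural markers -0.35 with 0 of 10 and epicardial markers -0.60 with 0 of 11.

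Some injury genes did not differ between the strains beyond their error. Thbs4, a thrombospondin of strained muscle and tendon, had counts of 222, 106 and 153 in B6 uninjured, 2399.7, 4081 and 2081 in B6 injured, 271, 436 and 342 in C3H uninjured and 5751 and 2619 in C3H injured regions. Injured libraries exceeded uninjured ones in both strains, by 4.15 in B6 and 3.50 in C3H, with an interaction of -0.65 (SE 0.55, adjusted p = 0.639). Angptl7, a secreted angiopoietin-like protein, had 72.2, 66.4 and 95.4 in B6 uninjured, 490.0, 355 and 335 in B6 injured, 92.1, 96.3 and 75.5 in C3H uninjured and 243 and 379 in C3H injured regions, with effects of 2.32 in B6 and 1.78 in C3H, with an interaction of -0.53 (SE 0.40, adjusted p = 0.596). Nppa, the atrial natriuretic peptide, had 8007, 2893 and 3403 in B6 uninjured, 21258, 27047 and 8439 in B6 injured, 10416, 69974 and 16226 in C3H uninjured and 52736 and 51908 in C3H injured regions. For Nppa the interaction was -0.78 (SE 0.97, adjusted p = 0.775). Its C3H uninjured library 2 was higher than any other, and without it the interaction was 0.03. Tlr4, the endotoxin receptor that is mutated in C3H/HeJ, had an interaction of 0.61 (SE 0.44, adjusted p = 0.579), and Nnt, a mitochondrial enzyme that carries a deletion in C57BL/6J, one of -0.81 (SE 0.35, adjusted p = 0.317). A count over the whole gene checks neither mutation. An adjusted p above the threshold does not show that the effects were equal.

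The interaction equals the C3H minus B6 difference in injured regions minus that in uninjured regions, so both were set side by side. Of the 221 genes with a higher C3H effect, 204 (92.3%) had a lower mean in C3H than in B6 uninjured regions, against 50.5% of all tested, and the median difference was -0.67. In the uninjured regions 33 of the 221 were lower in C3H by the test (1.79% of all tested were) and 0 higher (1.32%). In the injured regions 187 were higher in C3H (3.72%) and 1 lower (3.34%), with a median difference of 1.77. Of the 10 genes with a lower C3H effect, 1 had a lower mean in C3H than in B6 uninjured regions, and the median difference was 0.63. By the test 3 of the 10 were higher in C3H uninjured regions (1.32% of all tested). In the injured regions 5 of the 10 were lower in C3H (3.34%), with a median difference of -0.80. The uninjured values enter the interaction, so a low start in C3H itself raises it and a high start lowers it. Macrophage markers had a median difference of -0.90 in uninjured and 0.76 in injured regions.

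In 66 called genes the uninjured difference was at least 1 in size, and the text describes genes among the 6 of these with the smallest difference in injured regions. Ctsh, a lysosomal aminopeptidase, had counts of 1881, 1584 and 1254 in B6 uninjured, 2032, 2708 and 1632 in B6 injured, 596, 561 and 389 in C3H uninjured and 2061 and 2616 in C3H injured regions. C3H uninjured libraries were all below the B6 ones by 1.61 on the log2 scale, while the injured libraries of both strains overlapped with a difference of 0.16 (adjusted p = 0.763), with an interaction of 1.77 (SE 0.37, adjusted p = 0.0364). Ly86, the partner of the Cd180 receptor, had 486, 686 and 279 in B6 uninjured, 626, 731 and 537 in B6 injured, 111, 175 and 127 in C3H uninjured and 741 and 869 in C3H injured regions. For Ly86 both C3H injured libraries lay above all others, the B6 groups overlapped, and the interaction was 2.10 (SE 0.46, adjusted p = 0.0432). Bcl2a1b, a survival gene with near-identical copies between which reads may be split, had 202, 269.6 and 114 in B6 uninjured, 260.1, 299 and 227 in B6 injured, 33.7, 37.7 and 49.7 in C3H uninjured and 235 and 391 in C3H injured regions. For Bcl2a1b C3H injured libraries lay above C3H uninjured ones but not above all B6 ones, the B6 groups overlapped, and the interaction was 2.40 (SE 0.50, adjusted p = 0.0339). Ppm1h, a phosphatase, had 296, 301 and 351 in B6 uninjured, 309.8, 255 and 359 in B6 injured, 161, 115 and 127 in C3H uninjured and 374 and 661 in C3H injured regions. For Ppm1h both C3H injured libraries lay above all others, the B6 groups overlapped, and the interaction was 1.94 (SE 0.38, adjusted p = 0.0283). Among the genes described here Tnfrsf12a was the 1 that started higher in C3H. The 1 gene that stayed lower in C3H injured regions was Cd300ld, a receptor of the CD300 family of myeloid cells, with 373, 301 and 372 in B6 uninjured, 484, 876 and 508 in B6 injured, 35.6, 50.3 and 28.4 in C3H uninjured and 255 and 278 in C3H injured regions. For Cd300ld C3H injured libraries lay above C3H uninjured ones but not above all B6 ones, B6 injured libraries lay above B6 uninjured ones, and the interaction was 2.02 (SE 0.43, adjusted p = 0.0367). This gene is named after its values were seen.

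**Figure D5:**
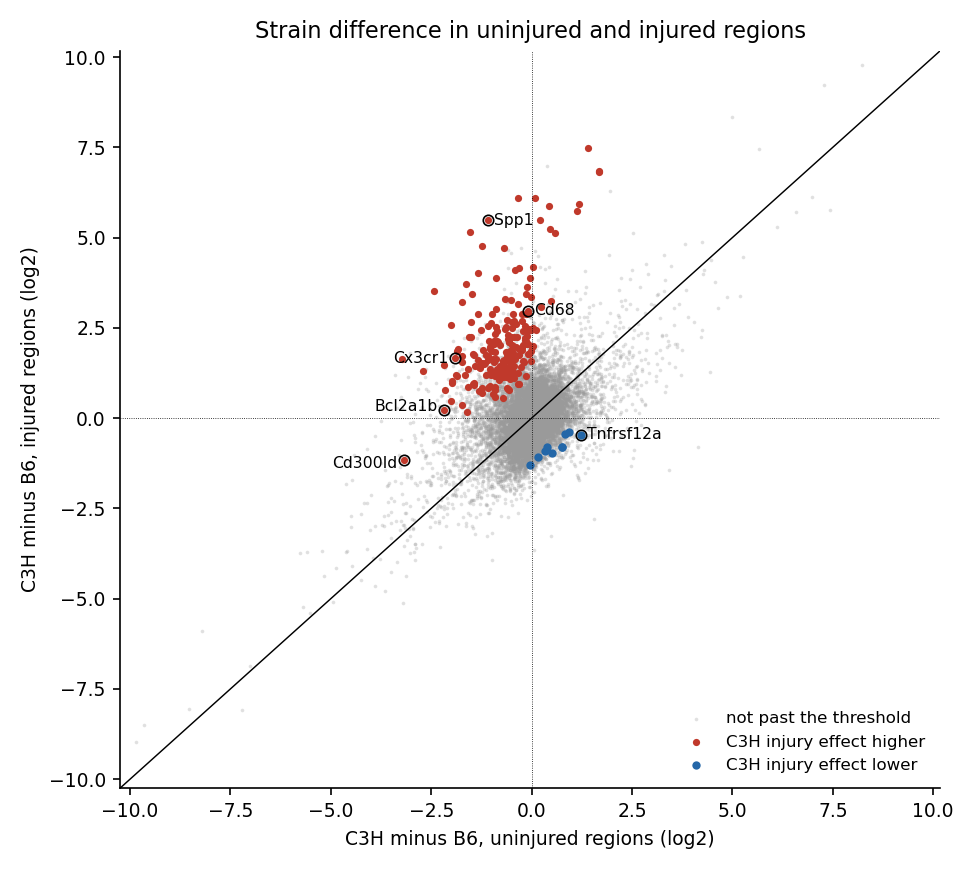
C3H minus B6 difference (log2) of each tested gene in uninjured (x axis) and injured regions (y axis), with the line of equal differences. Genes with a higher C3H injury effect (red) lie mostly left of 0 on the x axis, 204 of 221, and above 0 on the y axis, 220 of 221, and the 10 with a lower effect (blue) lie below 0 on the y axis.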

How the data were processed

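RNA of 11 libraries (4 groups, 6 mice) was sequenced. Per the submitters' processing notes, the authors used TopHat2 2.0.11, build mm9, HTSeq 0.6.1 and DESeq. Annotation, strandedness and filters of the counting were not given in these sources. The deposited values are a signal: the read count of a gene divided by a size factor of its library. In each library all values were whole multiples of 1 step (100% at a tolerance of 1e-06), and dividing by it gave back the reads.

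The values were taken as log2(value + 1), which understates changes of low genes. Group means were fitted with limma 3.58.1 (R 4.3.3), using a mean-variance trend and leaving 7 residual degrees of freedom. Tests were two-sided, with Benjamini-Hochberg adjustment over 14751 genes and a threshold of 0.05. The script was tested on simulated data. The labels name the mouse of each library, so that replicates are separate animals and the 2 regions of a mouse are paired. Residuals of the 2 regions had correlations of 0.276, -0.0140 and 0.524 for the B6 mice, and 0.305 and 0.575 for the C3H mice. The animal as a block was therefore an alternative, besides edgeR 4.0.16 and DESeq2 1.42.0 on the reads, other scalings, filters and pseudocounts, a fit without the trend, and leaving out each library.

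The 22 pathway and 16 marker lists held 646 symbols, of which 608 were in the table and 595 were tested. The comparison, its genes and the lists were chosen with earlier results of these data known. Named genes were the 12 largest interactions in each direction among called genes whose mean was at least 50 (10 existed in the lower direction, and predicted genes and clones were left out). To these came the 3 largest called interactions of each pathway list, or its smallest p where none was called, and the member of each marker list with the highest mean. The rule also took 6 called genes with an uninjured strain difference of at least 1 and the smallest injured difference, and 13 genes set by name where tested. It sought called genes with opposite effects of at least 1, or with a larger B6 than C3H effect, and found 0 of either at that mean. Other list members were named as examples. Promoters came from RefSeq for GRCm38.p6, another build than that of the counts, and were matched by symbol. Results for some genes that the rule or the lists take are not reported here.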

Additional observations from a re-analysis of the deposited data

Results flagged for a closer look

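The number of genes whose injury effect differed between C3H and B6 by the test of the difference itself was 231. Among the named genes that passed it, 7 had fitted effects of opposite sign in the strains. A positive effect in C3H and a negative one in B6 was fitted for Slc39a2 (interaction 6.68), F7 (5.35), Hk3 (4.77) and Ppm1h (1.94), and the B6 effects of these 4 were -0.10, -0.05, -0.13 and -0.05, so that none is far from 0. A negative effect in C3H and a positive one in B6 was fitted for Tnfrsf12a (-1.70), Smad6 (-1.55) and Lzts2 (-1.33), with B6 effects of 0.79, 0.61 and 0.28. For these 3 genes the change was positive in 3 of 3 B6 animals and negative in 2 of 2 C3H animals.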

How the results depend on the processing

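The count of 231 genes stayed within 1.5 times (218 to 264 genes) with pseudocounts of 0.5 and 5, without a filter, with a mean of at least 50, with TMM or quantile scaling and with edgeR. DESeq2 called 722 genes, 543 with a higher and 179 with a lower C3H effect, and 229 of the 231 were among them. A fit without the mean-variance trend called 152, of which 2 had a lower effect. With the animal as a fixed block 491 genes were called (437 higher, 54 lower), and as a random block 777 (581 higher, 196 lower), which include 226 and 231 of the 231. Genes with a lower C3H effect numbered 16 with TMM and 24 with quantile scaling. Leaving out 1 library gave 10 to 272 genes, with 10 to 263 higher and 0 to 15 lower. The count moved by over 1.5 times without C3H injured library 2 (10 genes), B6 uninjured library 1 (83), C3H uninjured library 3 (108), and B6 injured library 1 (108), 2 (144) or 3 (107). Under the 21 alternatives other than leaving out C3H injured library 2, 76 of the 231 genes passed each time. For the 231 genes the direction was the same under every alternative run. The refits share the libraries that gave the calls, so a kept direction is little further support. Of the 76 named genes, 6 changed sign under at least 1 alternative, and 0 of these 6 had been called. Median interactions changed sign for 11 of 38 lists, among them the interferon, bone formation, neutrophil, T and NK cell and B cell lists. Leaving out 1 library gave 0 to 14 calls among lysosomal, 1 to 9 among lipid-laden macrophage, 1 to 6 among macrophage marker, 0 to 9 among matrix remodelling, 0 to 6 among cytokine and 0 to 5 among osteoclast genes. The osteoclast calls were 0 without C3H injured library 2, B6 uninjured library 1, B6 injured library 3 or C3H uninjured library 3. Adipocyte markers gave no value at a mean of at least 50, where no gene was left. The cause of these changes was not tested. With 2 C3H injured libraries the precision of that group rests on a spread pooled over the groups.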
